A study of Homo sapiens with 6 samples.

Results

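Hypoxia-inducible factor (HIF) and 9 genes known as its regulators or targets were followed by RNA sequencing in the human lung cancer line 95D, kept without glucose, without glutamine or in complete medium. The 10 genes were chosen by name: the factor subunit HIF1A, the oxygen-sensing hydroxylase genes EGLN1 and EGLN3, the secreted factors VEGFA and ADM, the collagen hydroxylase genes P4HA1 and P4HA2, the mitophagy receptor genes BNIP3 and BNIP3L, and the carbonic anhydrase gene CA9. All 10 were found among the 59609 gene names of the deposited tables. Of these 10, 9 reached 1 FPKM (fragments scaled to transcript length and to the number mapped, so a level per length) in at least 1 library and were tested together with the other genes that did, 16752 in all; CA9 was not.

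The labels give all libraries as wild-type 95D, a single cell line, with cells first seeded for 24 h in complete medium. Glucose deprivation lasted 48 h in glucose-free medium (2 libraries), glutamine deprivation 48 h in glutamine-free medium (1 library mapped to its label), and control cells had complete DMEM (2 libraries). All media held 10% serum. The labels call the serum dialyzed for the deprived media alone, so serum and nutrient cannot be told apart in a comparison with control, whereas both deprived media share the dialyzed serum. The labels do not say whether replicates are separate cultures; the p-values therefore measure only how far these samples spread, and that spread may be technical.

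HIF is a dimer of an oxygen-labile alpha subunit and the stable partner ARNT. With oxygen, the EGLN enzymes hydroxylate the alpha subunit, the VHL ubiquitin ligase binds it and it is degraded; with little oxygen it persists and switches on genes for vessel growth, acid handling, matrix assembly and mitochondrial turnover. The EGLN enzymes and the collagen hydroxylases both use alpha-ketoglutarate, a metabolite that cells can make from glutamine, as a cosubstrate. HIF alpha is controlled mainly as a protein, which RNA levels do not measure.

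HIF binds DNA at the core motifs ACGTG and GCGTG, and these were searched on both strands of the RefSeq promoter windows (GRCh38.p14, from 250 bases before to 50 after a start). RefSeq windows were matched for 8 of the 10 genes, with 2 for HIF1A; VEGFA and BNIP3L were not matched. The stretches below are shown because they hold every member promoter with ACGTG, and the GCGTG of the windows with that core alone. They end before the RefSeq start site and run 5′ to 3′ on the gene's strand. The capitals mark the motif, as CACGT where ACGTG lies on the other strand. Before the start thus refers to RefSeq, and the GENCODE spans of these genes can begin further upstream. The stretches of CA9, EGLN1 and ADM and most of that of P4HA1 lie inside the GENCODE spans. Those of BNIP3 and HIF1A lie upstream of theirs.
CA9, chr9:35673880-35673927, plus strand: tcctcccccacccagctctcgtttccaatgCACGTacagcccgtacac
EGLN1, chr1:231422288-231422330, minus strand: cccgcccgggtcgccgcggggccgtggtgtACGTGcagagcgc
P4HA1, chr10:73096918-73096982, minus strand: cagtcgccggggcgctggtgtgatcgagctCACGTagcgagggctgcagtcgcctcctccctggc
BNIP3, chr10:131982022-131982087, minus strand: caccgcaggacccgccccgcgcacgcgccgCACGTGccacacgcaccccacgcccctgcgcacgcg
ADM, chr11:10304942-10305006, plus strand: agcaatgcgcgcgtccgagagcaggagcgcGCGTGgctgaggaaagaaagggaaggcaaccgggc
HIF1A, chr14:61695279-61695343, plus strand: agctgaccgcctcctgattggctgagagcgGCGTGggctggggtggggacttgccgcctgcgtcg

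The first base of the ACGTG core lay 18 bases before the RefSeq start in CA9 and 13 in EGLN1. It lay 86 bases before that start in P4HA1 and 134 in BNIP3. In BNIP3 the core reads as CACGTG, so that ACGTG stands on both strands and overlaps itself. BNIP3 also held 4 copies of GCGTG, all on the other strand, which the stretch shows in lower case as cacgc. Of all 35116 windows of 300 bases, 21.4% held ACGTG, 36.5% GCGTG and 7.26% CACGTG. The windows of EGLN3 and P4HA2 and the second window of HIF1A held neither core. Those of EGLN3 (chr14:33951025-33951324) and P4HA2 (chr5:132227042-132227341) lie inside the GENCODE spans. They do not reach the 5′ ends of these spans, which were not searched for these genes. The same holds for the windows of EGLN1 and ADM. A match is a description of the letters, not of binding.

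The 5 libraries had inferred depths of 34530000 to 48930000 reads, read from the steps of low FPKM values of single-exon genes. Replicates correlated at r = 0.986 in glucose deprivation and r = 0.991 in control across the tested genes, which are not independent replicates. At these depths and annotated exon lengths, the tested members rested on an estimated 213 reads (EGLN3 without glucose) to 7643 reads (HIF1A in control), with a counting error of at most 6.85%. Of the epithelial markers KRT8 (4.15 to 5.50 FPKM) and KRT18 (16.0 to 21.7 FPKM) were present and KRT7, KRT19, EPCAM and CDH1 stayed below 1 FPKM in every library. Of the 5 lung markers NKX2-1 stood at 0.709 to 1.17 FPKM and NAPSA at 0.213 to 0.418 FPKM. SFTPC reached at most 0.0184 FPKM, and SFTPB and SCGB1A1 were listed at 0 in every library. The 4 immune, 3 endothelial and 4 fibroblast markers summed to at most 1.33, 0.0455 and 2.11 FPKM. The 3 mesenchymal markers did not share a pattern. VIM had 135 and 150 FPKM without glucose, 85.1 FPKM without glutamine and 77.7 and 76.2 FPKM in control. CDH2 had 9.7 and 9.33, 9.72, and 8.7 and 8.88 FPKM in the same media, and FN1 had 1.81 and 1.79, 3.49, and 1.44 and 1.47 FPKM.

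VEGFA was the member that was higher without glucose and also without glutamine, whereas HIF1A, EGLN1 and EGLN3 were lower in both deprivations, although EGLN1 without glutamine turned sign when libraries were scaled to their total. BNIP3L and P4HA1 were higher without glucose, and ADM, BNIP3 and P4HA1 were lower without glutamine. With libraries scaled to their total, only VEGFA, BNIP3L and EGLN3 stayed called without glucose, and only VEGFA and ADM without glutamine. P4HA2 passed the test in no comparison of the reported fit, and CA9 stayed at or near 0.

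Without glucose, 6 of the 9 tested members changed at an adjusted p under 0.05 (limma, Benjamini-Hochberg over all tested genes), 3 higher and 3 lower, against 54.1% of all tested genes (26.1% higher and 28.0% lower). Their median log2 fold change was -0.04, that of all genes 0.03. Without glutamine 7 changed, 1 higher and 6 lower, against 50.6% of all genes (24.4% higher and 26.2% lower), with a median of -0.40 for the members and 0.05 for all genes. Between the deprivations 7 differed, 1 higher and 6 lower without glutamine, against 44.2% of all genes (22.4% higher and 21.7% lower), with medians of -0.26 and 0.02. The glutamine comparisons rest on 1 deprived library, and its spread is taken from the other 2 groups. The comparisons share libraries, so their counts are not independent of each other.

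Levels below are FPKM divided by a scaling factor per library, each fold change is a difference of log2(FPKM + 1) ± SE, and ± after a level is the SD of 2 libraries. Another scaling shifted all genes together: dividing by the total of FPKM moved the median log2 fold change of all genes to 0.11 without glucose and 0.293 without glutamine, and left 3, 2 and 2 members called in the comparisons of glucose deprivation with control, glutamine deprivation with control and the deprivations with each other. Under that scaling 66.9% of all calls were higher without glucose, against 48.3% in the fit reported here, and 91.4% were higher without glutamine, against 48.2%. The SEs of the members rose as well, without glucose from 0.04 to 0.17 for HIF1A and from 0.05 to 0.16 for P4HA1. The totals of the 2 glucose-deprived libraries were 493129 and 565293 FPKM. A call lost under scaling to the total thus need not mean a smaller change. Taken relative to the median of all genes, the members' changes moved little across the 4 scalings, as given for most of them below. Each scaling divides a library by a constant and so shifts all genes nearly alike, and these narrow ranges follow from that arithmetic. They do not show that a call holds or which scaling is right. Medians of the other lists shift with the scaling as all genes do and were not recomputed.

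**Figure D1:**
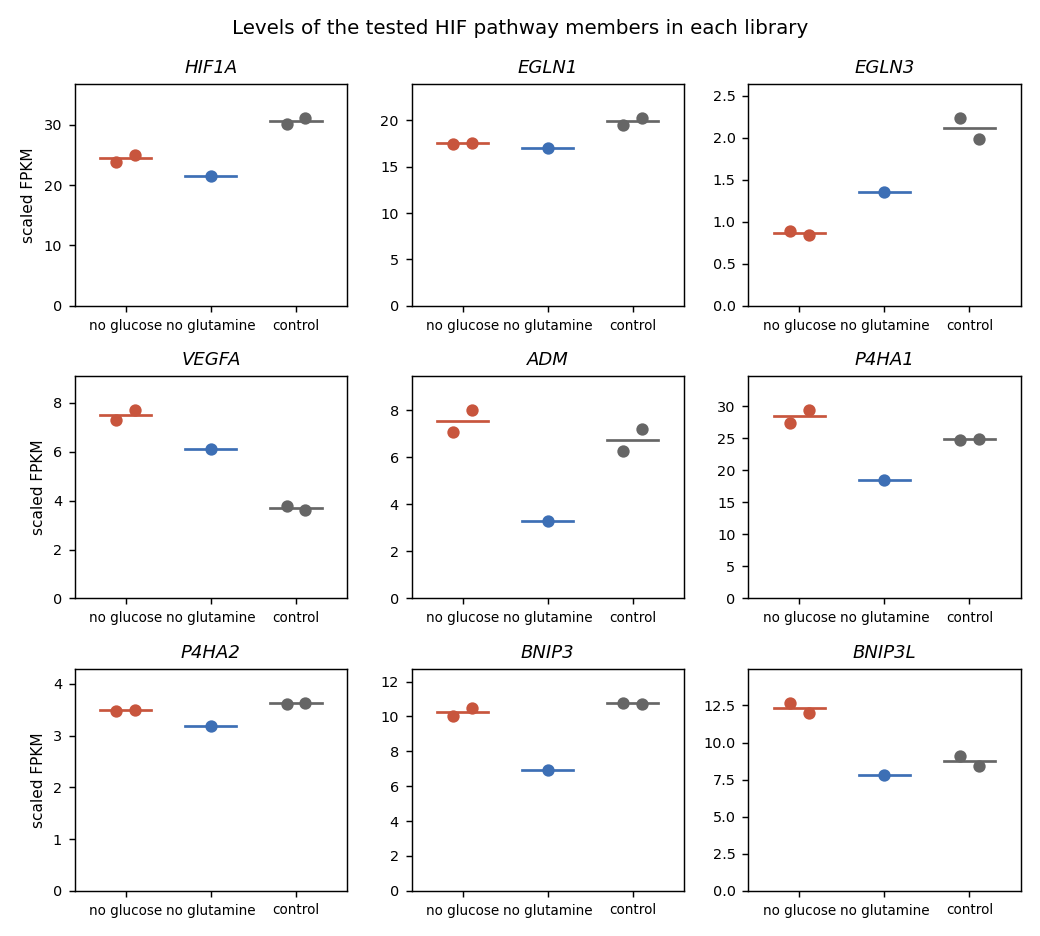
Scaled FPKM (y axis, from 0) of the 9 tested members in each library, with 1 point per library and a line at the group mean, for cells without glucose (2 libraries), without glutamine (1) and in control medium (2). VEGFA is above both controls in all 3 deprived libraries. HIF1A, EGLN1 and EGLN3 are below both controls in all 3 (for EGLN1 not when libraries are scaled to their total). On the reported scaling, every tested member but EGLN3 is lower in the glutamine-deprived library than in either glucose-deprived one. For EGLN1 and P4HA2 that difference did not pass the test.

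HIF1A encodes the alpha subunit that oxygen destabilizes, and it lies on chromosome 14 from 61695513 to 61748259 (GRCh38, GENCODE release 29, as for the other coordinates). It stood at 23.9 and 25.0 FPKM in the glucose-deprived libraries, at 21.5 FPKM in the glutamine-deprived library and at 30.2 and 31.2 FPKM in the controls. All 3 deprived libraries lay below both controls. The log2 fold change was -0.31 ± 0.04 without glucose (adjusted p = 0.000831) and -0.49 ± 0.05 without glutamine (adjusted p = 0.000303, limma), or 79.8% and 70.0% of the control mean. Relative to the median of all genes these were -0.34 to -0.31 and -0.54 to -0.48 across the scalings. Neither call held under scaling to the total (adjusted p = 0.376 and 0.508).

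HIF1A also differed between the deprivations, lower without glutamine by a small amount (-0.18 ± 0.05 log2, adjusted p = 0.0319). That call was lost without control replicate 1 (adjusted p = 0.0883), without control replicate 2 (0.0904) and without glucose deprivation replicate 2 (0.0751). It was also lost with values as deposited (0.421), upper-quartile scaling (0.0819), no filter (0.102), a variance trend on FPKM (0.0542) or a fit of the 2 groups alone (0.0846), and scaling to the total turned its direction (0.02 log2, adjusted p = 0.968). The gene AL137129.1 overlaps HIF1A on the same strand, with up to 7.33 FPKM, so that reads could be split between both names. Of 4472 genes averaging 10 FPKM or more, NPM3, NOP56 and NUP37 lay closest to HIF1A over the 5 libraries, at Euclidean distances of 0.021, 0.027 and 0.035 in log2(FPKM + 1) relative to the control mean.

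EGLN1, the main hydroxylase that marks HIF alpha for degradation in most cells, lies on chromosome 1 from 231363751 to 231425044. It had 17.5 and 17.6 FPKM without glucose, 17.0 FPKM without glutamine and 19.5 and 20.3 FPKM in control. On the reported scaling the deprived libraries lay below both controls by a narrow margin; scaled to the total, glucose deprivation replicate 1 lay above control replicate 1 and the glutamine-deprived library above both controls. The log2 fold change was -0.17 ± 0.04 without glucose (adjusted p = 0.0111) and -0.22 ± 0.05 without glutamine (adjusted p = 0.0113), and the deprivations did not differ past the threshold (-0.04 ± 0.05, adjusted p = 0.552). Both calls were lost without control replicate 2 (adjusted p = 0.102 and 0.0825), with values as deposited (0.0617 and 0.457), upper-quartile scaling (0.0791 and 0.171) or no filter (0.0552 and 0.0503). Scaling to the total ended both as well (0.801 and 0.769) and turned the glutamine value to 0.09. Relative to all genes it was -0.20 to -0.17 without glucose and -0.27 to -0.20 without glutamine.

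EGLN3, an inducible member of the same enzyme family and itself a known HIF target, changed more. It lies on chromosome 14 from 33924231 to 34462774. Its levels were 0.885 and 0.843 FPKM without glucose, 1.36 FPKM without glutamine and 2.24 and 1.99 FPKM in control. The groups did not overlap, and the glutamine-deprived library stood between the glucose-deprived libraries and the controls. The mean was 40.8% of control without glucose (-0.74 ± 0.07 log2, adjusted p = 0.00011) and 64.3% without glutamine (-0.40 ± 0.08, adjusted p = 0.00542); the pseudocount understates changes at such low levels. EGLN3 was higher without glutamine than without glucose (0.34 ± 0.08 log2, adjusted p = 0.013), a call lost without glucose deprivation replicate 2 (adjusted p = 0.058), with no filter (0.0752) or a variance trend on FPKM (0.0701). The glutamine call against control was lost with no filter (0.0529) and under scaling to the total (0.264). Relative to all genes the change was -0.77 without glucose under each of the scalings and -0.49 to -0.45 without glutamine. SPTSSA overlaps the annotated span of EGLN3 on the same strand, at up to 16.7 FPKM.

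**Figure D2:**
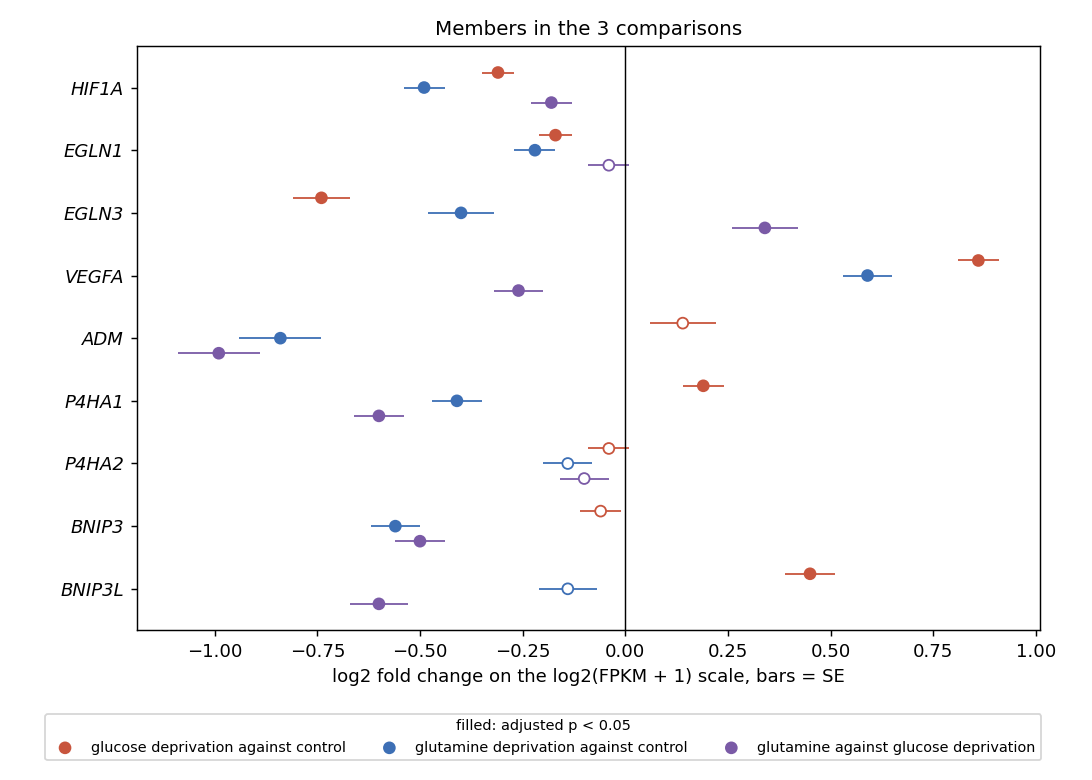
Log2 fold changes on the log2(FPKM + 1) scale (x axis) with SE bars for the 9 tested members in the comparisons of glucose deprivation with control, glutamine deprivation with control, and glutamine with glucose deprivation; filled points have an adjusted p under 0.05 (limma). VEGFA stands to the right of 0 in both comparisons with control, at 0.86 and 0.59, while ADM and P4HA1 stand to the right without glucose, ADM unfilled, and to the left without glutamine.

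VEGFA encodes vascular endothelial growth factor A, the ligand that drives the growth of blood vessels, and lies on chromosome 6 from 43770184 to 43786487. It had 7.31 and 7.71 FPKM without glucose, 6.10 FPKM without glutamine and 3.78 and 3.62 FPKM in control. Every deprived library was far above both controls. The mean was 203% of control without glucose (0.86 ± 0.05 log2, adjusted p = 1.76e-05) and 165% without glutamine (0.59 ± 0.06, adjusted p = 0.000171). Relative to all genes these changes were 0.83 to 0.84 and 0.54 to 0.57 across the scalings. VEGFA was lower without glutamine than without glucose (-0.26 ± 0.06 log2, adjusted p = 0.00837), a call lost with values as deposited (adjusted p = 0.0628), with no filter (0.0631) and under scaling to the total (0.814).

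ADM encodes adrenomedullin, a secreted peptide that widens vessels, and lies on chromosome 11 from 10304680 to 10307397. Its levels were 7.08 and 8.01 FPKM without glucose, 3.31 FPKM without glutamine and 6.25 and 7.22 FPKM in control. The glucose-deprived libraries overlapped the controls, and the glutamine-deprived library lay below all 4. The log2 fold change was 0.14 ± 0.08 without glucose (adjusted p = 0.175) and -0.84 ± 0.10 without glutamine (adjusted p = 0.000407), where the level was 49.1% of control. Between the deprivations ADM had the largest difference of the tested members (-0.99 ± 0.10 log2, adjusted p = 0.000358), with 43.9% of the glucose-deprived mean left without glutamine. Relative to all genes that difference was -1.01 under each of the scalings.

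Among the other ligands and receptors of both families, 9 of 13 were tested, with 2 higher and 3 lower without glucose, and 4 higher and 0 lower without glutamine (medians -0.09 and 0.18). All tested genes had 26.1% higher and 28.0% lower without glucose, and 24.4% and 26.2% without glutamine. With 9 genes and no test of the list, the counts are a description. PGF, a placental growth factor that shares a receptor with VEGFA, stood apart from it: it had 0.771 and 0.813 FPKM without glucose, 3.39 FPKM without glutamine and 3.83 and 3.53 FPKM in control (-1.39 ± 0.06 log2 without glucose, adjusted p = 9.3e-06). VEGFB, a further family member, was higher without glucose (0.83 ± 0.08) and without glutamine (0.36 ± 0.10, adjusted p = 0.0161). ADM2, the paralog of ADM, moved the other way from ADM without glutamine, at 1.77 FPKM against 0.192 and 0.245 FPKM in control (1.19 ± 0.13 log2, adjusted p = 0.000291), and at 0.606 and 0.598 FPKM without glucose it was higher too (0.40 ± 0.11, adjusted p = 0.016). The receptors CALCRL, KDR and RAMP3 did not reach 1 FPKM, RAMP3 being listed at 0 in every library.

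P4HA1 and P4HA2 encode alternative catalytic subunits of the enzyme that hydroxylates proline in collagen, which lets the triple helix hold. P4HA1 lies on chromosome 10 from 73007217 to 73096974 and had 27.4 and 29.4 FPKM without glucose, 18.4 FPKM without glutamine and 24.7 and 24.9 FPKM in control. The glucose-deprived libraries lay above both controls and the glutamine-deprived one below them. The log2 fold change was 0.19 ± 0.05 without glucose (adjusted p = 0.0132) and -0.41 ± 0.06 without glutamine (adjusted p = 0.0011), and the deprivations differed by -0.60 ± 0.06 (adjusted p = 0.000341, limma). The glucose call was lost without control replicate 1 (0.17 log2), without control replicate 2 (0.18 log2) and with no filter (adjusted p = 0.0933). Scaling to the total ended it with a larger change and a larger SE (0.3 ± 0.16 log2, adjusted p = 0.149). That scaling also ended the glutamine call (-0.10, adjusted p = 0.716) and the difference between the deprivations (-0.40, 0.13).

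P4HA2, on chromosome 5 from 132191838 to 132295315, had 3.48 and 3.50 FPKM without glucose, 3.18 FPKM without glutamine and 3.61 and 3.64 FPKM in control. Its changes were -0.04 ± 0.05 log2 without glucose (adjusted p = 0.473), -0.14 ± 0.06 without glutamine (adjusted p = 0.0717) and -0.10 ± 0.06 between the deprivations (adjusted p = 0.195), none past the threshold; with no filter the glutamine value passed it (adjusted p = 0.0354). Of the partners in collagen hydroxylation 7 of 9 were tested, with 2 higher and 1 lower without glucose and 3 higher and 1 lower without glutamine. For all tested genes the shares were 26.1% higher and 28.0% lower without glucose, and 24.4% and 26.2% without glutamine. With 7 genes, nothing is read from these counts. P4HB, the disulfide isomerase that pairs with the P4HA subunits, had 84.3 and 90.0 FPKM without glucose, 61.4 FPKM without glutamine and 65.1 and 65.7 FPKM in control. It was higher without glucose (0.41 ± 0.05 log2, adjusted p = 0.000267), and CRTAP, of the prolyl-3-hydroxylation complex, was too (0.72 ± 0.04). PPIB, the cyclophilin of that complex, was lower without glutamine (-0.72 ± 0.05, adjusted p = 6.83e-05). Beside these genes the collagen gene COL1A1, a fibroblast marker, had 0.384 and 0.388 FPKM without glucose, 1.83 FPKM without glutamine and 0.642 and 0.575 FPKM in control, while COL1A2 reached at most 0.00248 FPKM. The 4 fibroblast markers summed to 0.439 to 2.11 FPKM over the libraries, and their part in these results was not tested.

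BNIP3 and BNIP3L encode related receptors of the outer mitochondrial membrane that hand mitochondria to the autophagy machinery. BNIP3, on chromosome 10 from 131966455 to 131982013, had 10.0 and 10.5 FPKM without glucose, 6.94 FPKM without glutamine and 10.8 and 10.7 FPKM in control. The glucose-deprived libraries lay just below the controls (-0.06 ± 0.05 log2, adjusted p = 0.314) and the glutamine-deprived library well below (-0.56 ± 0.06, adjusted p = 0.00021), at 64.7% of control. BNIP3L had 12.7 and 12.0 FPKM without glucose, 7.82 FPKM without glutamine and 9.09 and 8.41 FPKM in control. It was higher without glucose, at 141% of control (0.45 ± 0.06 log2, adjusted p = 0.000404), and its value without glutamine did not pass the threshold (-0.14 ± 0.07, adjusted p = 0.114). Both were lower without glutamine than without glucose, BNIP3 by -0.50 ± 0.06 log2 (adjusted p = 0.000537) and BNIP3L by -0.60 ± 0.07 (adjusted p = 0.000536). With libraries scaled to their total, the glutamine value of BNIP3 against control was -0.28 (adjusted p = 0.249), and the differences between the deprivations were -0.32 (0.214) and -0.41 (0.0814).

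Of the other mitophagy receptors and partners 10 of 11 were tested, with 2 higher and 5 lower without glucose (median -0.19) and 0 higher and 4 lower without glutamine (median -0.17). Among all tested genes 26.1% were higher and 28.0% lower without glucose, and 24.4% and 26.2% without glutamine. The list was not tested as a set. The receptor gene BCL2L13 was higher without glucose (0.37 ± 0.05 log2, adjusted p = 0.000665), and MAP1LC3B, a ubiquitin-like protein of the autophagosome membrane, was lower (-0.36 ± 0.05, adjusted p = 0.000453). FUNDC1, a receptor also linked to hypoxia, was lower without glutamine (-0.39 ± 0.07, adjusted p = 0.00202) and without glucose (-0.22 ± 0.05, adjusted p = 0.0101). The deprivations did not differ past the threshold for FUNDC1 (-0.17 ± 0.07).

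CA9 encodes a membrane carbonic anhydrase that is among the most oxygen-dependent HIF targets known. It was listed at 0 in both glucose-deprived libraries, at 0.0166 FPKM, or about 1 read, in the glutamine-deprived library, and at 0 in both controls. No fold change was computed, and the low level leaves no comparison for this gene; ARHGEF39, at up to 5.44 FPKM, overlaps it on the other strand. Of the 14 other carbonic anhydrases 6 were tested, and the cytosolic CA2 was the most abundant, at 50.5 and 52.5 FPKM without glucose, 51.2 FPKM without glutamine and 120 and 106 FPKM in control. CA2 was lower in both comparisons with control, by the same log2 fold change of -1.12 (± 0.06 and adjusted p = 1.84e-05 without glucose, ± 0.08 and adjusted p = 6.08e-05 without glutamine).

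Ordered by level per length, HIF1A, P4HA1 and EGLN1 were the most abundant members in each medium, and P4HA2 and EGLN3 the least abundant of those tested. P4HA1 led without glucose (28.4 ± 1.42 FPKM, with HIF1A at 24.5 ± 0.774), and HIF1A led in control (30.7 ± 0.763, with P4HA1 at 24.8 ± 0.143). BNIP3L stood above BNIP3 without glucose (12.3 ± 0.486 against 10.3 ± 0.341 FPKM) and below it in control (8.75 ± 0.481 against 10.7 ± 0.101 FPKM). ADM and VEGFA did not differ beyond their spread without glucose (7.54 ± 0.657 and 7.51 ± 0.284 FPKM), and neither did VEGFA and P4HA2 in control (3.70 ± 0.109 and 3.63 ± 0.0231 FPKM).

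Ratios of a pair of members within a library do not depend on the scaling. VEGFA per HIF1A was 0.305 and 0.308 without glucose, 0.284 without glutamine and 0.125 and 0.116 in control, so the deprived libraries were alike and stood above the controls. ADM per VEGFA was 0.969 and 1.04 without glucose, 0.543 without glutamine and 1.65 and 1.99 in control, which sets all 3 media apart. BNIP3L per BNIP3 was 1.27 and 1.14 without glucose, 1.13 without glutamine and 0.842 and 0.789 in control. P4HA1 per P4HA2 was 7.88 and 8.42 without glucose, 5.79 without glutamine and 6.84 and 6.83 in control, and EGLN3 per EGLN1 was 0.0505 and 0.048, 0.080, and 0.115 and 0.0979 in the same media. These ratios are values without a test.

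**Figure D3:**
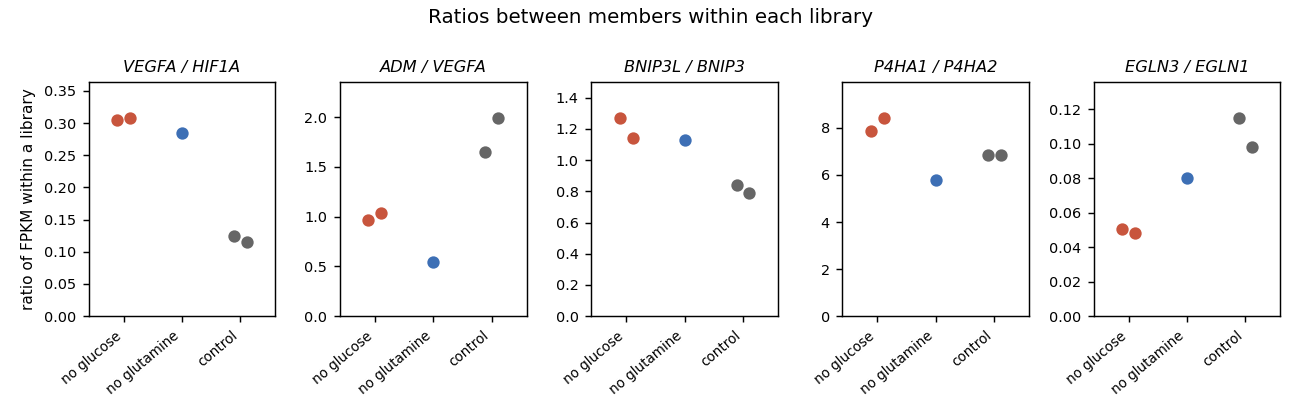
Ratios of FPKM between pairs of members within each library (y axes, from 0), with 1 point per library, for cells without glucose (2 libraries), without glutamine (1) and in control medium (2). VEGFA per HIF1A is 0.284 to 0.308 in the deprived libraries and at most 0.125 in control, and BNIP3L per BNIP3 is above 1 in every deprived library and below 1 in both controls.

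Of 6 other HIF subunits and coactivators 5 were tested, 4 higher and 1 lower without glucose (median 0.31), where 26.1% of all tested genes were higher, and 5 higher and 0 lower without glutamine (median 0.44), where 24.4% were higher. With 5 genes and no test of the list, the counts are a description. CREBBP and EP300, the acetyltransferases that HIF recruits, led both. CREBBP had 5.48 and 5.02 FPKM without glucose, 7.71 FPKM without glutamine and 2.65 and 2.66 FPKM in control (0.77 ± 0.05 and 1.25 ± 0.06 log2, adjusted p = 2.86e-05 and 3.87e-05), and EP300 changed by 0.60 ± 0.06 and 0.99 ± 0.08. EPAS1, the alternative alpha subunit HIF-2 alpha, moved apart between the media: it had 3.73 and 3.73 FPKM without glucose, 7.25 FPKM without glutamine and 5.18 and 5.14 FPKM in control. It was lower without glucose (-0.38 ± 0.05, adjusted p = 0.00037), higher without glutamine (0.42, adjusted p = 0.000676), and higher without glutamine than without glucose (0.80 ± 0.06, adjusted p = 0.00011).

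In the list on HIF turnover and inhibition, 1 of 10 genes was higher and 5 were lower without glucose (median -0.24), and 2 were higher and 4 lower without glutamine (median -0.07). The shares of all tested genes were 26.1% higher and 28.0% lower without glucose, and 24.4% and 26.2% without glutamine. With 10 genes and no test of the list, the counts are a description. Without glucose the genes that fell furthest were ELOC, ELOB and CUL2, the elongins and cullin on which the VHL ligase is built, and without glutamine ELOC, RBX1 and ELOB, RBX1 being its RING subunit. ELOC had 6.33 and 7.10 FPKM without glucose, 5.86 FPKM without glutamine and 11.6 and 12.5 FPKM in control (-0.76 ± 0.06 and -0.92 ± 0.08 log2). ELOB (-0.60 ± 0.05 and -0.69 ± 0.07) and CUL2 (-0.44 ± 0.05 and -0.52) fell in both deprivations, and so did RBX1 (-0.29 ± 0.05, adjusted p = 0.00248, and -0.74 ± 0.06, adjusted p = 0.000124). These subunits also serve other ligases. VHL itself had 21 and 21.7 FPKM without glucose, 23.2 FPKM without glutamine and 22 and 22.8 FPKM in control. Its changes of -0.07 ± 0.04 and 0.05 ± 0.05 log2 did not pass the threshold. HIF1AN, which blocks the coactivator site of HIF alpha, and EGLN2 were higher without glutamine than without glucose (0.41 ± 0.06 and 0.40 ± 0.06, adjusted p = 0.00158 and 0.00175). Against control, HIF1AN was higher without glutamine (0.43 ± 0.06) and had 0.02 without glucose (adjusted p = 0.73), and EGLN2 was lower without glucose (-0.38 ± 0.05) and had 0.02 without glutamine (adjusted p = 0.79).

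**Figure D4:**
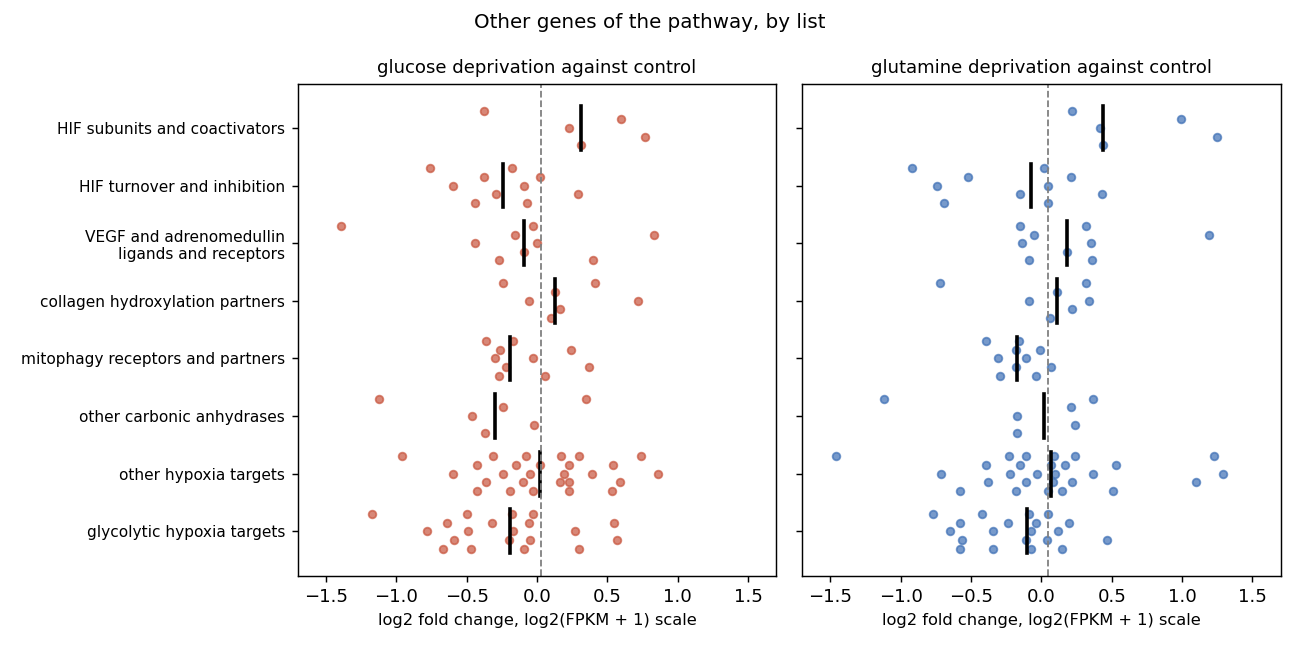
Log2 fold changes on the log2(FPKM + 1) scale (x axes) of the tested genes of 8 further lists, without glucose (left) and without glutamine (right), each against control; points are genes, black bars list medians and the dashed line the median of all 16752 tested genes. The subunit and coactivator list has medians of 0.31 and 0.44, the glycolytic targets -0.19 and -0.10, and the other hypoxia targets spread to both sides of 0 with medians of 0.02 and 0.07.

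Of 30 other hypoxia targets 27 were tested, 12 higher and 9 lower without glucose (median 0.02), 7 higher and 8 lower without glutamine (median 0.07), and 13 higher and 8 lower without glutamine than without glucose (median 0.10). Without glutamine these counts lie near the shares of all tested genes (24.4% higher and 26.2% lower), so nothing is read from them about these targets. The shares were 26.1% higher and 28.0% lower without glucose, and 22.4% and 21.7% between the deprivations. The list was not tested as a set. STC2, a secreted glycoprotein, was higher in both deprivations, at 20.6 and 20.2 FPKM without glucose, 26.7 FPKM without glutamine and 11.2 and 10.3 FPKM in control (0.86 ± 0.05 and 1.23 ± 0.06 log2). DDIT4, an inhibitor of mTORC1 signalling, was higher without glutamine, at 57.2 FPKM against 25.3 and 20.4 FPKM (1.29 ± 0.11, adjusted p = 0.000107), and had 22.4 and 21.9 FPKM without glucose (-0.03, adjusted p = 0.766); the deprivations differed (1.33 ± 0.11, adjusted p = 0.000164). WSB1, a ubiquitin ligase subunit, had 13.9 and 12.9 FPKM without glucose, 6.76 FPKM without glutamine and 7.60 and 7.61 FPKM in control, and was higher without glucose (0.74 ± 0.05, adjusted p = 2.91e-05; -0.15 ± 0.06 without glutamine, adjusted p = 0.0702). The oxygenase gene JMJD6 was lower in both (-0.96 ± 0.05 and -0.58), and the transferrin receptor gene TFRC was lower without glutamine (-1.46 ± 0.05, adjusted p = 2.43e-05) and higher without glucose (0.16 ± 0.04, adjusted p = 0.00952).

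Of 22 glycolytic genes known as hypoxia targets 20 were tested. Without glucose 4 were higher and 11 lower (median -0.19), and without glutamine 2 were higher and 9 lower (median -0.10). Of all tested genes 26.1% were higher and 28.0% lower without glucose (median 0.03), and 24.4% and 26.2% without glutamine (median 0.05). The list was not tested as a set. TPI1, an enzyme of the glycolytic trunk, had 233 and 244 FPKM without glucose, 242 FPKM without glutamine and 379 and 383 FPKM in control (-0.67 ± 0.04 and -0.65 ± 0.05 log2). PGAM1 (-1.17 ± 0.04 and -0.77 ± 0.05) and LDHA (-0.78 ± 0.05 and -0.58) also fell. The hexokinase gene HK2 was higher without glucose (0.57 ± 0.06, adjusted p = 0.000271) and did not pass the test without glutamine (-0.07 ± 0.08, adjusted p = 0.502). SLC2A1, the glucose transporter, was higher without glucose (0.27 ± 0.08, adjusted p = 0.0269) and lower without glutamine (-0.34 ± 0.10, adjusted p = 0.0238). Both were lower without glutamine than without glucose (-0.63 ± 0.08 for HK2 and -0.61 ± 0.10 for SLC2A1, adjusted p = 0.000733 and 0.00242). The glycogen synthase gene GYS1 was lower without glucose (-0.47 ± 0.05), higher without glutamine (0.20 ± 0.06, adjusted p = 0.0337) and higher without glutamine than without glucose (0.66 ± 0.06, adjusted p = 0.000279). As whole cultures were measured, fewer cells with a transcript and less of it per cell cannot be told apart in any of these values.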

How the data were processed

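Per the labels' protocols, RNA depleted of ribosomal RNA was read in pairs, 150 bases each. The submitters' processing notes name HISAT2 2.0.5, StringTie and hg38; the annotation, the strand setting and the version of StringTie are not given in the sources used here. Values were deposited by the authors in FPKM, a unit inferred from the numbers, as no header names it. Of the glutamine values, 1 column is headed with the name of glucose deprivation replicate 2 and was not mapped or used. Each library was divided by a trimmed mean of its log ratios against the mean of the libraries (30% of ratios and 5% of abundances trimmed at each end), with factors of 1.01 and 0.979 for glucose deprivation, 1.08 for glutamine deprivation and 0.96 and 0.971 for control. Genes with at least 1 FPKM in 1 library were fitted on log2(FPKM + 1) with limma 3.58.1 in R 4.3.3, 1 coefficient per group and 2 residual degrees of freedom. Variances followed a trend on FPKM times exon length (GENCODE release 29); p-values are two-sided with Benjamini-Hochberg adjustment. The fit was run on simulated data in which 200 genes changed, far fewer than were called here. That run therefore cannot check the scaling where many genes move. Depth was read from single-exon genes with 1 to 20 reads (2991 to 3239 a library); 94.9% to 95.5% of their values were whole to within 0.05 reads. Members and lists were chosen with earlier results of these data known. Each of the 10 members is named. From other lists, up to 3 called genes of largest change per list and comparison are named, some with their values in the other comparisons. Untested receptors and VHL are named too. Alternatives were scaling, pseudocount, filter, variance trend, libraries in the fit, a replicate block and leaving out each library.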

Additional observations from a re-analysis of the deposited data

How the results depend on the processing

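Of 360 values of single members under the alternatives, 309 kept their direction and their side of the threshold, 37 lost the call, 1 gained it and 13 turned sign. For glucose deprivation against control, leaving out the glutamine-deprived library and fitting the 2 groups alone are the same fit. Its values, all of which kept direction and side, are counted under both names. Every turn came from another scaling, and no value that turned was past the threshold there. Scaling to the total gave 5382 genes called without glucose and 4220 between the deprivations, and 3, 2 and 2 members called without glucose, without glutamine and between the deprivations. It turned BNIP3 (0.04) and P4HA2 (0.05) without glucose, BNIP3L (0.14), P4HA2 (0.10) and EGLN1 (0.09) without glutamine, and HIF1A (0.02), P4HA2 (0.06) and EGLN1 (0.15) between the deprivations. Upper-quartile scaling turned BNIP3 (0.01) and P4HA2 (0.02) without glucose and EGLN1 (0.01) between the deprivations, and the values as deposited turned BNIP3L (0.0037) without glutamine and EGLN1 (0.07) between the deprivations. With no filter 5859 genes were called without glucose, and 4 members between the deprivations. Between the deprivations 85.5% of calls were higher under scaling to the total and 68.3% with values as deposited, against 50.8% in the reported fit; without glutamine these shares were 91.4%, 67.2% and 48.2%. Leaving out 1 library gave 5752 to 8985 genes without glucose, 5432 to 8580 without glutamine and 5297 to 6351 between the deprivations (without glucose 5752 and 5842 with control replicate 1 or 2 left out, and without glutamine 5432 with control replicate 2 left out), and 4 to 6, 6 to 7 and 5 to 7 members. Without the glutamine-deprived library no glutamine comparison could be fitted. The labels pair no libraries; deviations of equally numbered control and glucose-deprived libraries correlated at r = -0.0225. A replicate block called 8719, 7449 and 6251 genes and 6, 7 and 6 members, and HIF1A lost its call between the deprivations (adjusted p = 0.123). The causes of these shifts were not tested. Depth limits CA9 and, less, EGLN3 and ADM.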

Other observations

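The antisense RNAs of HIF1A were scarce. HIF1A-AS1 had 0.164 and 0.134 FPKM without glucose, was listed at 0 in the glutamine-deprived library and had 0.135 and 0.0968 FPKM in control, and HIF1A-AS3 had 0.159 and 0.0944, 0.0288, and 0.143 and 0.0454 FPKM in the same media. EGLN3-AS1 and P4HA2-AS1 were listed at 0 in every library, and the pseudogene BNIP3P1 reached at most 0.0555 FPKM. Without a stated strand setting, reads of a gene and of its antisense partner cannot be told apart. Across the 10 members 22 annotated genes overlap their spans, of which 7 reached 1 FPKM. On the other strand these include PNMA2 in the span of BNIP3L (up to 4.66 FPKM) and PDLIM4 in that of P4HA2 (up to 2.29 FPKM). AL136131.3 overlaps VEGFA (up to 1.14 FPKM) and AL162274.2 overlaps BNIP3 (up to 1.05 FPKM), also on the other strand. Their part in the members' levels was not tested.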
